A study of Mus musculus with 24 samples.

Results

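The mouse mitochondrial genome carries 37 annotated genes, and their transcripts were followed here across the kidneys of a Pkd1 series. The members are the rows of the count table whose gene symbol starts with mt-, which gave 37 of the 54532 genes listed, with 13 protein-coding genes, 2 ribosomal RNAs and 22 transfer RNAs. RNA was sequenced from whole kidneys of 24 mice aged 18 days, with 1 library per mouse. Their strain is labelled C57BL/6, and the study's methods give a C57BL/6 J background. Every mouse had the RC allele at Pkd1, which encodes polycystin-1. RC is a hypomorphic missense change. In RC/+ mice, labelled control, the other Pkd1 allele is intact, and the unedited, D18 and D53 groups each held 3 mice. In RC/- mice, labelled cystic, the other allele is a floxed Pkd1 allele recombined by Ksp-Cre, which acts in kidney tubule epithelium, and the same groups each held 5 mice. Cre is present in the RC/- mice and not in the RC/+ mice, so Cre and the cystic genotype cannot be told apart. In the edited groups the miR-17 binding motif had been removed from the Pkd1 3′ UTR on the RC allele, and each edited line descends from a single founder, founder 3 for D18 and founder 2 for D53.

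Mitochondria keep a small circular genome that is transcribed from both strands as long precursors, which are then cut at the transfer RNAs that lie between most genes. Its protein-coding genes encode subunits of the respiratory chain and of ATP synthase, and the remaining subunits of these complexes are encoded in the nucleus. The transcription factor, polymerase and RNA-binding proteins that act on it are also nuclear gene products. Kidney tubules, above all the proximal tubule and the thick ascending limb, are rich in mitochondria because salt and solute transport is costly in ATP.

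Total counts ran from 20379982 to 30837488 per library, and the mt- genes took 715074 to 1907943 of them. Levels are given as CPM, counts scaled to a common library total. Pkd1 was at 49.9 to 51.5 CPM in RC/+, below every library of RC/+ D18, RC/+ D53, RC/- and RC/- D18 (52.0 to 71.4 CPM), and at 38.4 to 63.5 CPM in RC/- D53. Gene counts cannot tell the alleles apart or see the motif, so Pkd1 checks no label. Replicates 20 to 22 of RC/- D18 and the 5 RC/- D53 replicates (libraries 20 to 27) held 184 to 240 summed CPM of 10 skeletal muscle genes against 10.6 to 25.2 in the other 16 libraries. The 20 proximal tubule markers, 14 markers of the thick ascending limb and distal convoluted tubule and 14 collecting duct markers were all detected. In such bulk samples, fewer cells of a type and less RNA per cell cannot be told apart.

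The 37 genes were not counted alike. Of all mt- counts, 95.3% came from 7 protein-coding genes (mt-Nd1, mt-Nd2, mt-Co1, mt-Nd4, mt-Nd5, mt-Nd6 and mt-Cytb), 4.41% from the ribosomal RNAs and 0.160% from the transfer RNAs. The other 6 protein-coding genes, mt-Co2, mt-Atp8, mt-Atp6, mt-Co3, mt-Nd3 and mt-Nd4l, gave 0.118%. Each of the 7 genes had 13442 to 742269 counts in a library and each of the 6 had 7 to 791. In GRCm38 the 6 genes lie together within chrM:6390-11042. This stretch has a copy on the minus strand at chr1:24611535-24616197, annotated as 7 unprocessed pseudogenes. These are Gm29216 for the end of mt-Co1, Gm28661 for mt-Co2, Gm10925 for mt-Atp6, Gm28437 for mt-Co3, Gm28438 for mt-Nd3, Gm10222 for mt-Nd4l and Gm28439 for the first 876 bases of mt-Nd4. The authors' counts keep only reads that align to a single place in the genome. Of all stretches of 150 bases, the stated read length, 99.4% in mt-Co2 and mt-Atp6, 99.8% in mt-Co3, 97.0% in mt-Nd3 and 98.0% in mt-Nd4l also occur without a mismatch in an annotated nuclear transcript. In mt-Nd4 the share is 59.2% and in mt-Co1 23.6%. For mt-Nd1, mt-Nd2, mt-Nd5, mt-Nd6, mt-Cytb and both ribosomal RNAs it is 0. No annotated pseudogene covers mt-Atp8 in full, which lies inside the copied stretch between mt-Co2 and mt-Atp6, so its 0% says nothing of the genome there. A further copy pair with at least 20 counts in a library lies on chromosome 2, Gm13340 (97.6% identical to mt-Co1) and Gm13341 (95.9% identical to mt-Co2). Levels of the 6 genes are levels of the few reads placed on them, and they are given apart.

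**Figure D1:**
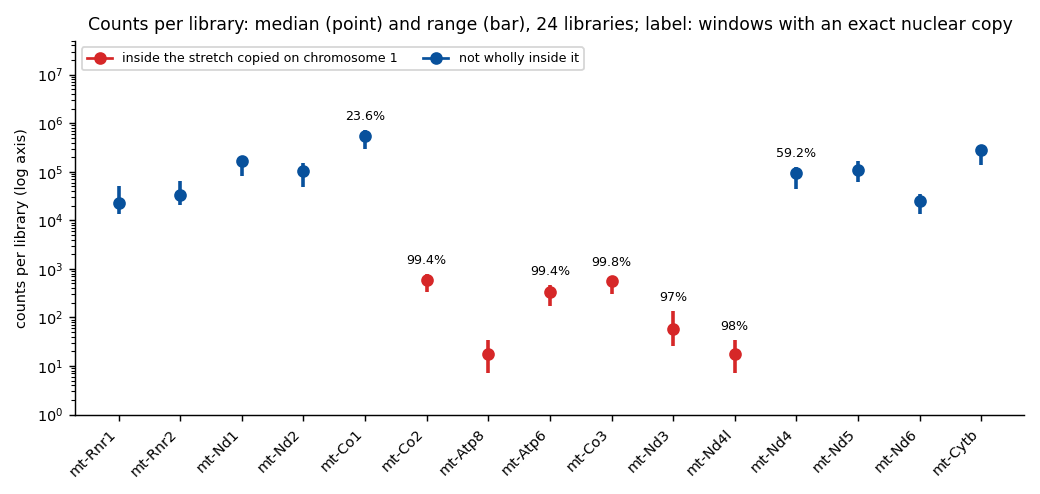
Counts per library (log axis) of the 13 protein-coding genes and 2 ribosomal RNAs in genome order, as the median (point) and the range (bar) over 24 libraries, with the percent of 150-base stretches that have an exact annotated nuclear copy printed above where it is over 0. The 6 genes inside the stretch copied on chromosome 1 (red) sit at 7 to 791 counts, and the other genes (blue) at 13442 or more.

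The starts of 2 of these genes are shown beside their copies, because mt-Nd3 and its copy differ in counts between libraries. The first 30 bases of mt-Nd3 and of its chromosome 1 copy differ at 1 base (T3C, counted from the first base of the gene), which is the only difference over the 345 bases compared, and capitals mark it. The first 30 bases of mt-Nd4l and of its copy are identical, as are all 294 bases compared, so no base is in capitals. Sequences are from the GENCODE M21 transcripts of GRCm38, 5′ to 3′.
mt-Nd3, chrM:9459-9488, plus strand: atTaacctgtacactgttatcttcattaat
Gm28438, chr1:24613090-24613119, minus strand: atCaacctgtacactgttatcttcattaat
mt-Nd4l, chrM:9877-9906, plus strand: atgccatctaccttcttcaacctcaccata
Gm10222, chr1:24612671-24612700, minus strand: atgccatctaccttcttcaacctcaccata

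Per length, mt-Co1 was the highest of the well-counted genes. Over the 24 libraries its mean level was 13699 CPM per kb of annotated length, followed by 9345 for mt-Cytb, 6628 for mt-Nd1, 3914 for mt-Nd2, 2622 for mt-Nd4, 2403 for mt-Nd5 and 1933 for mt-Nd6. These are levels over the whole annotated length, and for mt-Co1 and mt-Nd4 part of that length has an exact copy. mt-Nd6 is the only protein-coding gene annotated on the minus strand. The ribosomal RNAs mt-Rnr1 and mt-Rnr2 were at 1015 and 881 CPM per kb, below each of the 7 genes. How the libraries were prepared and whether ribosomal RNA was depleted is not given in the sources used here.

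Setting RC/- beside RC/+ kidneys asks what the cystic genotype does to these transcripts without the edit. All mt- counts together made up 5.93, 6.55 and 6.07% of the library in RC/+ and 3.69, 3.73, 3.69, 4.05 and 3.16% in RC/-. Each RC/- library was below each RC/+ library. Of the 37 genes, 17 passed the filter on expression (a mean log2 CPM of at least -3), and 15 of these 17 were lower in RC/- by limma-trend at an adjusted p below 0.05, with none higher. Of all 22570 genes tested, 12.2% were called lower. mt-Rnr1 and mt-Atp8 were not called. The 17 log2 fold changes ran from -1.69 to -0.50 with a median of -0.74, where the median of all genes was 0.14. Of the 17 genes, 15 had every RC/- library below every RC/+ library, against 11.6% of all genes. With TMM factors, which moved the median of all genes to 0.01, 16 were called lower, and the 7 well-counted genes went from a range of -1.002 to -0.57 to a range of -1.14 to -0.71.

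In the edited RC/- kidneys the same sums were higher. The mt- genes took 5.44, 5.38, 5.58, 6.34 and 6.78% of the counts in RC/- D18 and 5.71, 5.33, 4.88, 5.59 and 5.58% in RC/- D53, and all 10 libraries were above all RC/- libraries. In RC/- D18 against RC/-, 15 of 17 genes were called higher and none lower, beside 14.3% of all genes called higher. mt-Tc and mt-Atp8 were not called. In RC/- D53 against RC/-, 12 of 17 were called higher and none lower, beside 11.3% of all genes. The genes not called there were mt-Rnr1, mt-Tc, mt-Atp8, mt-Nd4l and mt-Tp. In each comparison 11 genes had every edited library above every RC/- library, against 9.01% of all genes for D18 and 6.98% for D53. Both comparisons use the same RC/- libraries, and these also enter RC/- against RC/+. With libraries 20 to 27 as a covariate, 10 genes stayed called for D18 and 5 for D53 (mt-Nd1, mt-Atp6, mt-Co3, mt-Nd3 and mt-Nd4), in a fit where the whole RC/- D53 group lies in that set. Only RC/- D18 has libraries in and out of the set. The correction of the D53 values therefore comes from RC/- D18 replicates 20 to 22 against 18 and 19. The D18 values then rest on replicates 18 and 19. For the genes that lost the D53 call there, the log2 values became 0.42 (adjusted p = 0.112) for mt-Nd2, 0.31 (adjusted p = 0.316) for mt-Co1, 0.48 (adjusted p = 0.0740) for mt-Co2, 0.21 (adjusted p = 0.551) for mt-Nd5, 0.46 (adjusted p = 0.0909) for mt-Nd6, 0.44 (adjusted p = 0.0934) for mt-Cytb and 0.098 (adjusted p = 0.872) for mt-Rnr2. Leaving libraries 20 to 27 out repeats that D18 comparison with the same 2 RC/- D18 libraries, and 10 genes were called.

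**Figure D2:**
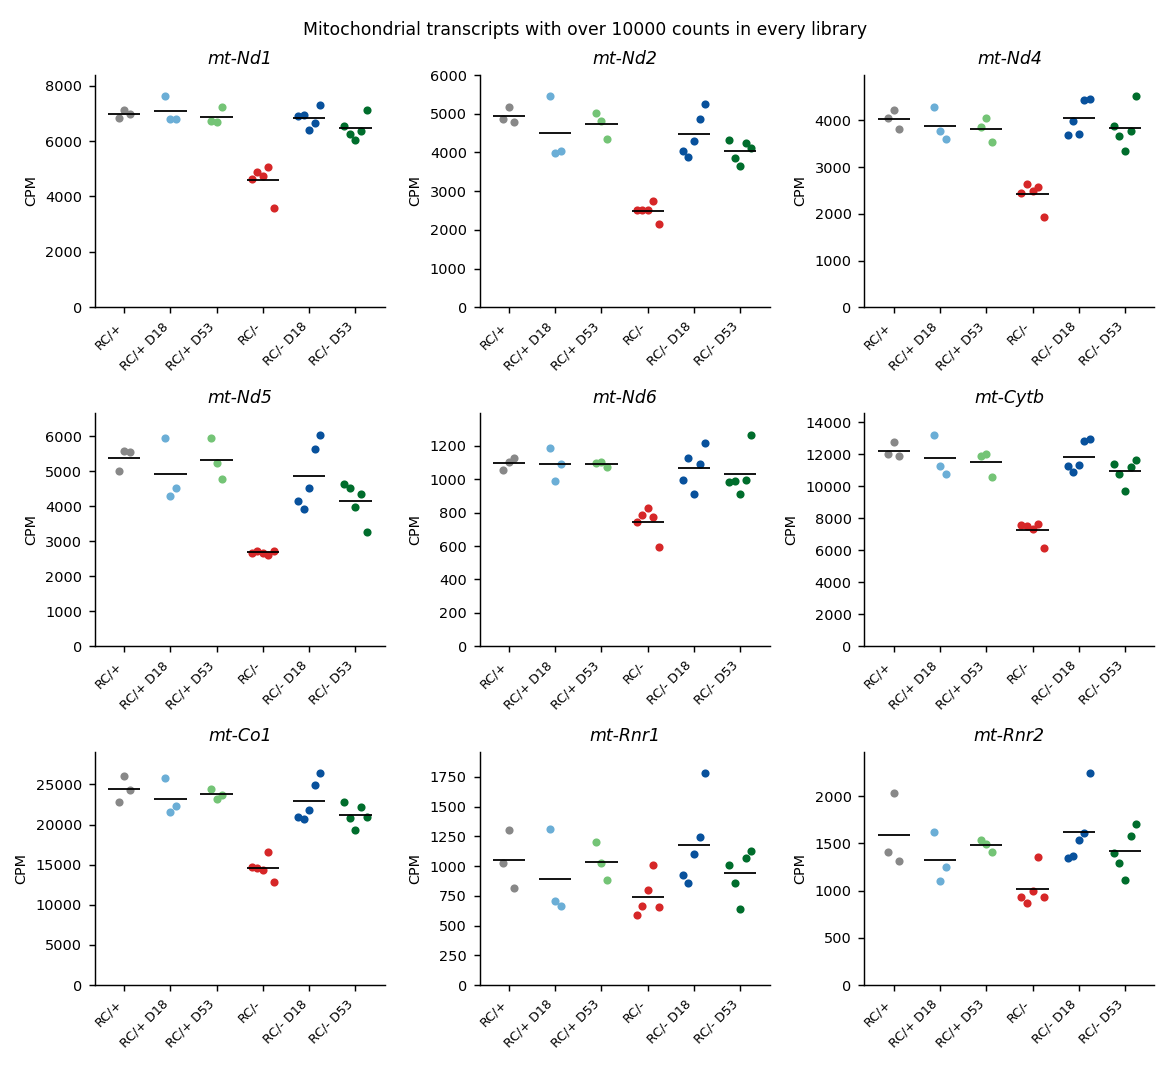
CPM per library of the 7 well-counted protein-coding genes and the 2 ribosomal RNAs in 6 groups, with points for libraries (3 in each RC/+ group and 5 in each RC/- group) and a line at the group mean. In all 7 protein-coding genes the unedited RC/- libraries (red) sit below every library of the other 5 groups, and mt-Rnr1 and mt-Rnr2 overlap.

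mt-Nd1 (chrM:2751-3707, plus strand) encodes a membrane subunit of complex I, the entry point of electrons from NADH. Its level was 6821, 7130 and 6978 CPM in the RC/+ libraries and 4618, 4880, 4734, 5080 and 3591 CPM in RC/-. The groups did not overlap, and RC/- replicate 17 had the lowest value. It was 6888, 6946, 6415, 6665 and 7289 CPM in RC/- D18 and 6544, 6261, 6056, 6363 and 7125 CPM in RC/- D53. Every edited library was above the highest RC/- value. In the edited RC/+ kidneys the level was 7639, 6792 and 6787 CPM for D18 and 6708, 6697 and 7220 CPM for D53. By limma-trend mt-Nd1 differed by -0.62 (adjusted p = 2.44e-05, SE 0.10) on the log2 scale between RC/- and RC/+. The difference from RC/- was 0.59 (adjusted p = 6.04e-06, SE 0.09) in RC/- D18 and 0.51 (adjusted p = 7.5e-05, SE 0.09) in RC/- D53.

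mt-Nd2 (chrM:3914-4951, plus strand) encodes a membrane subunit of complex I from its antiporter-like family. RC/+ libraries held 4873, 5175 and 4788 CPM of mt-Nd2, and RC/- libraries 2513, 2512, 2517, 2756 and 2156 CPM. RC/- libraries 13 to 15 lay within 5 CPM of each other, and all RC/- libraries were well below RC/+. mt-Nd2 stood at 4031, 3889, 4300, 4865 and 5266 CPM in RC/- D18 and at 4331, 3864, 3641, 4251 and 4112 CPM in RC/- D53. All 10 edited libraries were again above all 5 RC/- libraries. The RC/+ D18 libraries held 5468, 3988 and 4040 CPM and the RC/+ D53 libraries 5020, 4818 and 4336 CPM. mt-Nd2 changed on the log2 scale by -0.99 (adjusted p = 2.14e-07, SE 0.11) for the cystic genotype without the edit. Against RC/- it had 0.84 (adjusted p = 2.62e-07, SE 0.10) with D18 and 0.70 (adjusted p = 7.15e-06, SE 0.10) with D53.

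mt-Nd4 (chrM:10167-11544, plus strand) encodes a complex I subunit of the same antiporter-like family, and its first 876 bases have an exact copy on chromosome 1. Its level was 4057, 4226 and 3810 CPM in the RC/+ libraries and 2444, 2645, 2489, 2568 and 1937 CPM in RC/-. RC/- replicate 17 was the lowest and the groups were apart. It was 3698, 3989, 3707, 4429 and 4454 CPM in RC/- D18 and 3871, 3667, 3339, 3766 and 4529 CPM in RC/- D53. The edited libraries lay above RC/- and across the RC/+ range. Edited RC/+ kidneys held 4286, 3765 and 3600 CPM (D18) and 3857, 4048 and 3531 CPM (D53) of mt-Nd4. Fitted by limma-trend, RC/- differed from RC/+ by -0.75 (adjusted p = 6.29e-06, SE 0.11) in log2 CPM of mt-Nd4, and from RC/- the D18 kidneys differed by 0.75 (adjusted p = 6.66e-07, SE 0.09) and the D53 kidneys by 0.67 (adjusted p = 7.23e-06, SE 0.09).

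mt-Nd5 (chrM:11742-13565, plus strand) encodes the complex I subunit at the far end of its membrane arm. RC/+ libraries held 5005, 5576 and 5547 CPM of mt-Nd5, and RC/- libraries 2671, 2726, 2667, 2613 and 2727 CPM. The RC/- libraries lay within 2613 to 2727 CPM and far below RC/+. mt-Nd5 stood at 4146, 3930, 4513, 5616 and 6042 CPM in RC/- D18 and at 4626, 4520, 3982, 4345 and 3269 CPM in RC/- D53. Within RC/- D18 the values spread widely, and RC/- D53 replicate 27 was the lowest edited library. In the edited RC/+ kidneys the level was 5942, 4284 and 4508 CPM for D18 and 5952, 5240 and 4763 CPM for D53. By limma-trend mt-Nd5 differed by -1.002 (adjusted p = 2.69e-06, SE 0.14) on the log2 scale between RC/- and RC/+. The difference from RC/- was 0.83 (adjusted p = 3.94e-06, SE 0.12) in RC/- D18 and 0.62 (adjusted p = 0.000275, SE 0.12) in RC/- D53. The D53 call of mt-Nd5 ended with libraries 20 to 27 as a covariate (0.21, adjusted p = 0.551) and with the libraries of high Gm28438, a nuclear copy described with mt-Nd3, as a covariate (0.59, adjusted p = 0.0520). Only unedited RC/- has libraries with high and with low Gm28438. For every gene, the Gm28438 covariate therefore sets RC/+ and RC/- D53 against RC/- replicate 17 alone.

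mt-Nd6 (chrM:13552-14070, minus strand) encodes a small complex I subunit and is the one protein-coding gene on that strand. Its level was 1059, 1103 and 1131 CPM in the RC/+ libraries and 745, 789, 828, 774 and 595 CPM in RC/-. No RC/- library reached the lowest RC/+ value. It was 995, 1131, 912, 1090 and 1219 CPM in RC/- D18 and 986, 990, 913, 997 and 1269 CPM in RC/- D53. RC/- D53 replicate 27 was the highest library of its group. The RC/+ D18 libraries held 1190, 992 and 1093 CPM and the RC/+ D53 libraries 1099, 1105 and 1075 CPM. mt-Nd6 changed on the log2 scale by -0.57 (adjusted p = 0.000165, SE 0.11) for the cystic genotype without the edit. Against RC/- it had 0.52 (adjusted p = 6.85e-05, SE 0.09) with D18 and 0.47 (adjusted p = 0.000405, SE 0.09) with D53. Its last bases overlap those of mt-Nd5, and the strand setting of the counting is not stated.

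mt-Cytb (chrM:14145-15288, plus strand) encodes cytochrome b, the mitochondrially encoded subunit of complex III. RC/+ libraries held 12032, 12756 and 11895 CPM of mt-Cytb, and RC/- libraries 7560, 7513, 7359, 7655 and 6121 CPM. RC/- replicate 17 was below the other 4 RC/- libraries, and all were below RC/+. mt-Cytb stood at 11260, 10891, 11314, 12809 and 12934 CPM in RC/- D18 and at 11381, 10791, 9724, 11186 and 11651 CPM in RC/- D53. The lowest edited value, in RC/- D53 replicate 25, was still above the highest RC/- value. Edited RC/+ kidneys held 13236, 11278 and 10751 CPM (D18) and 11893, 12031 and 10564 CPM (D53) of mt-Cytb. Fitted by limma-trend, RC/- differed from RC/+ by -0.76 (adjusted p = 4.19e-06, SE 0.11) in log2 CPM of mt-Cytb, and from RC/- the D18 kidneys differed by 0.71 (adjusted p = 1.2e-06, SE 0.09) and the D53 kidneys by 0.60 (adjusted p = 2.43e-05, SE 0.09).

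mt-Co1 (chrM:5328-6872, plus strand) encodes the catalytic subunit of complex IV, cytochrome c oxidase. Its level was 22855, 26015 and 24258 CPM in the RC/+ libraries and 14741, 14618, 14380, 16591 and 12825 CPM in RC/-. The highest RC/- library, replicate 16, was below the lowest RC/+ library. It was 20915, 20648, 21808, 24935 and 26377 CPM in RC/- D18 and 22765, 20870, 19294, 22208 and 20885 CPM in RC/- D53. Edited and unedited RC/- libraries did not overlap. In the edited RC/+ kidneys the level was 25795, 21584 and 22312 CPM for D18 and 24447, 23176 and 23639 CPM for D53. By limma-trend mt-Co1 differed by -0.74 (adjusted p = 2.71e-05, SE 0.12) on the log2 scale between RC/- and RC/+. The difference from RC/- was 0.65 (adjusted p = 2.03e-05, SE 0.10) in RC/- D18 and 0.54 (adjusted p = 0.00031, SE 0.10) in RC/- D53.

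**Figure D3:**
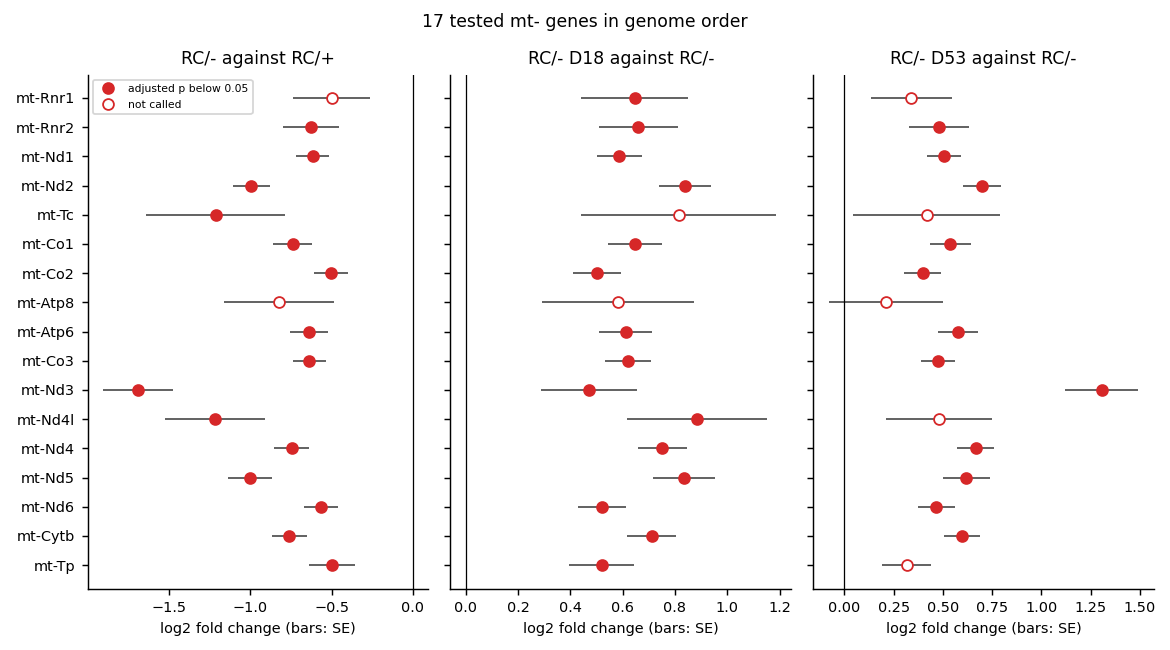
Log2 fold changes with standard errors (bars) of the 17 tested mt- genes in genome order, in RC/- against RC/+, RC/- D18 against RC/- and RC/- D53 against RC/-, with filled points for an adjusted p below 0.05. All points are below 0 in the first panel and above 0 in the others, and mt-Nd3 lies farthest from 0 in the panels against RC/+ and for D53.

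The ribosomal RNAs form the small (mt-Rnr1, chrM:70-1024) and large (mt-Rnr2, chrM:1094-2675) subunits of the mitochondrial ribosome. mt-Rnr1 was at 1029, 1308 and 813 CPM in RC/+ and 589, 663, 798, 1014 and 653 CPM in RC/-. These values overlapped, and the log2 fold change was -0.50 (adjusted p = 0.104, SE 0.24), which was called without RC/- replicate 16 (adjusted p = 0.0465) and was -0.33 (adjusted p = 0.392) without RC/+ replicate 5. mt-Rnr1 stood at 924, 858, 1100, 1245 and 1780 CPM in RC/- D18, which overlapped RC/-, and the log2 difference was 0.65 (adjusted p = 0.014, SE 0.21). In RC/- D53 it was 1010, 862, 638, 1072 and 1123 CPM, and the log2 fold change was 0.34 (adjusted p = 0.234, SE 0.21). Without RC/- D18 replicate 22, the highest library, the D18 call ended (adjusted p = 0.0585), and with libraries 20 to 27 as a covariate mt-Rnr1 differed by 0.29 in the D18 kidneys (adjusted p = 0.439) and by -0.26 in the D53 kidneys (adjusted p = 0.719). mt-Rnr2 was at 1410, 2030 and 1309 CPM in RC/+ and 936, 868, 1000, 1357 and 931 CPM in RC/-. The highest RC/- library overlapped the RC/+ range, and the log2 fold change was -0.63 (adjusted p = 0.00572, SE 0.17), a call that ended without RC/+ replicate 5 (adjusted p = 0.0797) and with the libraries of high Gm28438 as a covariate (-0.74, adjusted p = 0.0549). In RC/- D18 it was 1345, 1365, 1533, 1604 and 2240 CPM and in RC/- D53 1393, 1295, 1116, 1580 and 1705 CPM. The log2 fold changes of mt-Rnr2 were 0.66 (adjusted p = 0.000968, SE 0.15) for D18 and 0.48 (adjusted p = 0.017, SE 0.15) for D53, and the latter call ended without RC/- D53 replicate 27 (adjusted p = 0.0508). With libraries 20 to 27 as a covariate mt-Rnr2 differed by 0.43 in the D18 kidneys (adjusted p = 0.0946) and by 0.098 in the D53 kidneys (adjusted p = 0.872), where the Gm28438 covariate gave 0.59 (adjusted p = 0.135). Edited RC/+ libraries held 1309, 705 and 665 CPM of mt-Rnr1 for D18 and 1203, 1030 and 881 CPM for D53.

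Transfer RNAs carry amino acids to that ribosome and are shorter than the stated reads. Of the 22, 16 had 0 counts in all 24 libraries, 4 had at most 2 counts in a library, and only mt-Tp and mt-Tc passed the filter. mt-Tp, the proline transfer RNA at chrM:15356-15422 on the minus strand, had 1379 to 3609 counts. It was at 90.8, 111 and 84.9 CPM in RC/+ and 63.6, 65.2, 66.8, 81.0 and 61.0 CPM in RC/-. The groups did not overlap, and the log2 difference was -0.50 (adjusted p = 0.00717, SE 0.14), a call that ended without RC/+ replicate 5 (-0.39, adjusted p = 0.0693). mt-Tp in RC/- D18 was at 78.8, 81.1, 94.2, 107 and 128 CPM, and the log2 difference was 0.52 (adjusted p = 0.0014, SE 0.12) against RC/-, and in RC/- D53 at 87.0, 79.7, 72.4, 85.9 and 94.9 CPM, with 0.32 (adjusted p = 0.0548, SE 0.12). With libraries 20 to 27 as a covariate these became 0.25 (adjusted p = 0.205) and -0.13 (adjusted p = 0.743), while the D53 value was called with TMM factors (0.40, adjusted p = 0.0347), by edgeR (adjusted p = 0.0406) and by DESeq2 (adjusted p = 0.0312). mt-Tc, the cysteine transfer RNA, had 0 to 8 counts per library. Its log2 fold change in RC/- against RC/+ was -1.21 (adjusted p = 0.0283, SE 0.43), from 8, 5 and 6 counts in RC/+ and 2, 0, 3, 3 and 1 in RC/-, which do not overlap and are all near the counting limit. That call ended without any 1 of RC/+ replicates 4, 5 and 6 and RC/- replicates 14 and 17 (adjusted p up to 0.103), and with the libraries of high Gm28438 as a covariate (adjusted p = 0.136). The next highest, mt-Te, the glutamic acid transfer RNA, had 6 counts in all.

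The 6 genes inside the copied stretch were measured on few reads, and 5 of them, all but mt-Atp8, were called lower in RC/-. mt-Co2 and mt-Co3 encode the other mitochondrial subunits of complex IV, and mt-Atp6 and mt-Atp8 subunits of ATP synthase. mt-Co2 (chrM:7013-7696) was at 23.8, 28.9 and 25.8 CPM in RC/+, 18.7, 21.1, 17.6, 20.7 and 14.5 in RC/-, 27.6, 26.3, 22.7, 25.9 and 28.1 in RC/- D18 and 24.5, 22.6, 22.1, 24.95 and 27.3 in RC/- D53. mt-Co3 (chrM:8607-9390) was at 24.4, 26.9 and 24.7 CPM in RC/+, 15.2, 19.1, 17.2, 17.002 and 13.4 in RC/-, 24.2, 26.98, 23.2, 25.9 and 25.1 in RC/- D18 and 23.02, 21.8, 20.3, 22.9 and 25.4 in RC/- D53. For both genes the RC/- libraries lay below all libraries of the other 3 groups. The log2 fold changes in RC/- against RC/+ were -0.50 (adjusted p = 0.000548, SE 0.11) for mt-Co2 and -0.64 (adjusted p = 1.85e-05, SE 0.10) for mt-Co3. Against RC/-, mt-Co2 differed by 0.50 (adjusted p = 0.000104, SE 0.09) in RC/- D18 and 0.40 (adjusted p = 0.00182, SE 0.09) in RC/- D53, and mt-Co3 by 0.62 (adjusted p = 3.28e-06, SE 0.09) and 0.48 (adjusted p = 0.00017, SE 0.09).

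mt-Atp6 (chrM:7927-8607) was at 12.8, 15.7 and 13.9 CPM in RC/+, 9.15, 9.88, 10.4, 8.44 and 7.61 in RC/-, 14.6, 15.7, 11.8, 13.5 and 14.001 in RC/- D18 and 12.5, 12.5, 12.3, 13.9 and 16.9 in RC/- D53. The RC/- libraries were again below all others of these groups, with log2 fold changes of -0.64 (adjusted p = 0.000119, SE 0.12) for RC/- against RC/+, 0.61 (adjusted p = 2.98e-05, SE 0.10) for D18 against RC/- and 0.58 (adjusted p = 0.000108, SE 0.10) for D53 against RC/-. mt-Atp8 (chrM:7766-7969), which shares its last bases with mt-Atp6, had 7 to 35 counts per library and passed the test in none of these comparisons. Its log2 fold change in RC/- against RC/+ was -0.82 (adjusted p = 0.0566, SE 0.34), and it was called with TMM factors (-0.95, adjusted p = 0.0338), by edgeR (adjusted p = 0.0286), by DESeq2 (adjusted p = 0.0224) and without RC/+ replicate 4 or RC/- replicate 13 or 17. It was -0.44 (adjusted p = 0.602) with the libraries of high Gm28438 as a covariate and -0.61 (adjusted p = 0.245) without RC/+ replicate 5. mt-Nd4l (chrM:9877-10173), a short complex I subunit, had 7 to 35 counts as well. It was at 1.02, 1.02 and 1.12 CPM in RC/+ and 0.299, 0.422, 0.357, 0.504 and 0.487 in RC/-, without overlap, and the log2 difference was -1.22 (adjusted p = 0.00293, SE 0.31), a call that ended with the libraries of high Gm28438 as a covariate (-0.999, adjusted p = 0.153). mt-Nd4l in RC/- D18 was at 0.701, 0.815, 0.549, 0.94 and 1.24 CPM, which differed on the log2 scale by 0.89 (adjusted p = 0.00971, SE 0.27), or by 0.78 (adjusted p = 0.114) with libraries 20 to 27 as a covariate, and in RC/- D53 at 0.778, 0.977, 0.44, 0.621 and 0.361 CPM, which differed on the log2 scale by 0.48 (adjusted p = 0.189, SE 0.27). The levels in the edited RC/+ kidneys were 23.5 to 27.2 CPM for mt-Co2, 20.2 to 27.3 for mt-Co3, 13.2 to 14.4 for mt-Atp6, 0.803 to 1.31 for mt-Atp8 and 0.580 to 1.31 for mt-Nd4l.

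mt-Nd3 (chrM:9459-9806), a complex I subunit near the site where electrons pass to ubiquinone, is described together with its nuclear copy. It was at 4.37, 4.38 and 4.86 CPM in RC/+, 4.47, 3.87 and 4.17 in RC/+ D53 and 3.70, 2.85, 2.27, 4.14 and 4.98 in RC/- D53. In the D18 line it was at 2.26, 1.59 and 1.74 CPM in RC/+ D18 and 1.93, 1.87, 1.92, 1.55 and 2.31 in RC/- D18, and unedited RC/- libraries held 1.33, 1.39, 1.19, 1.09 and 1.86. All D18 libraries, with or without the cystic genotype, were at or below the lowest RC/- D53 value apart from RC/- D18 replicate 22. Gm28438, the copy that differs from it by the base shown above, had 165 to 356 counts in a set of 12 libraries and 28 to 70 in the rest. The set with high counts is made up of the 8 D18 libraries and 4 RC/- libraries, replicates 13 to 16. mt-Nd3 had 26 to 65 counts in the first 12 and 42 to 138 in the others. Gm28438 took 83.7% to 89.6% of the counts of both in the first 12 and 32.3% to 43.6% in the others, without overlap.

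**Figure D4:**
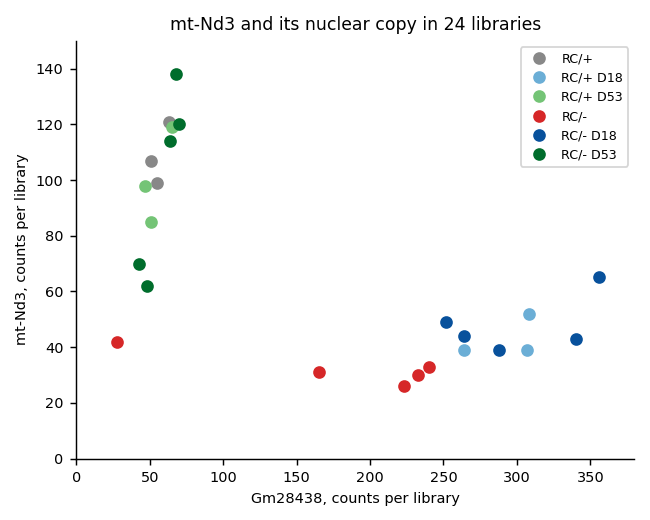
Counts of mt-Nd3 against counts of its nuclear copy Gm28438 in each of the 24 libraries, coloured by group. A set of 12 libraries lies at 165 to 356 counts of Gm28438 and holds the D18 line and all but 1 unedited RC/- library (red), and the other 12 lie at 28 to 70.

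This division nearly coincides with the groups compared for mt-Nd3. Only unedited RC/- has libraries on both sides. A covariate for the division therefore sets RC/+ and RC/- D53 against RC/- replicate 17 alone, and RC/- D18 against RC/- replicates 13 to 16. The log2 fold change was -1.69 (adjusted p = 9.99e-07, SE 0.21) for RC/- against RC/+, where RC/- replicate 17 is the only RC/- library on the RC/+ side, at 1.86 CPM against 4.37 to 4.86 CPM in RC/+. For RC/- D53 it was 1.31 (adjusted p = 8.28e-06, SE 0.19) and for RC/- D18 0.47 (adjusted p = 0.0443, SE 0.19), each set against RC/-. With the 12 libraries as a covariate these became -1.25 (adjusted p = 0.00614), 0.87 (adjusted p = 0.0560) and 0.58 (adjusted p = 0.0176). With the counts of the nuclear copies added to the mt- genes, the first turned to 0.22 (adjusted p = 0.573) and the second to -0.52 (adjusted p = 0.0999), and the D18 value was 0.79 (adjusted p = 0.00929). The D18 comparison without RC/- replicate 17 lies wholly within the 12 libraries. It repeats the D18 value with the covariate, at 0.58 (adjusted p = 0.0174). The D18 call with all libraries (0.47) ended when any 1 of RC/- replicates 13 to 16 or RC/- D18 replicates 18, 19, 20 and 22 was left out, with adjusted p-values of up to 0.114. It also ended with libraries 20 to 27 as a covariate (0.47, adjusted p = 0.176) or left out (0.47, adjusted p = 0.130). Both of these rest on RC/- D18 replicates 18 and 19. The call ended as well without a filter on expression (adjusted p = 0.0700) and with only the groups of the comparison fitted (adjusted p = 0.0769). What divides the libraries was not tested.

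Division by all mt- counts of the library removes the scaling to total counts and shows whether the genes moved alike. Shares were compared by two-sided exact permutation tests over libraries, unadjusted, with 45 tests for 15 genes and 3 comparisons. The smallest possible p is 0.0357 for 5 against 3 libraries and 0.00794 for 5 against 5. With a library left out of RC/- or RC/+ it is 0.0571 or 0.0952, so no share in RC/- against RC/+ can pass at 0.05 with fewer libraries. mt-Nd2 made up 8.22, 7.90 and 7.89% of mt- counts in RC/+ and 6.81, 6.73, 6.82, 6.80 and 6.82% in RC/-. It made up 7.42, 7.23, 7.71, 7.67 and 7.77% in RC/- D18 and 7.59, 7.26, 7.46, 7.60 and 7.36% in RC/- D53. The RC/- shares lay below those of all other libraries, with exact p = 0.0357 against RC/+, 0.00794 for RC/- D18 against RC/- and 0.00794 for RC/- D53 against RC/-, each the smallest possible. In the edited RC/+ kidneys the mt-Nd2 share was 8.201, 7.30 and 7.33% for D18 and 8.11, 8.06 and 7.53% for D53.

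Shares of plus-strand genes went both ways in RC/-. mt-Nd6, on the minus strand, had a higher share in RC/-, though its level in CPM was lower. Its share was 1.79, 1.68 and 1.86% in RC/+ and 2.02, 2.11, 2.24, 1.91 and 1.88% in RC/-, without overlap (exact p = 0.0357, the smallest possible). In RC/- D18 it was 1.83, 2.10, 1.64, 1.72 and 1.80% (exact p = 0.0794 against RC/-) and in RC/- D53 1.73, 1.86, 1.87, 1.78 and 2.27% (exact p = 0.294). Both ranges overlap RC/-. The share of mt-Nd5 was 8.44, 8.51 and 9.14% in RC/+ and 7.23, 7.30, 7.23, 6.45 and 8.62% in RC/-, and only RC/- replicate 17 reached the RC/+ range (exact p = 0.107). It was 7.63, 7.30, 8.09, 8.85 and 8.91% in RC/- D18 and 8.11, 8.49, 8.15, 7.77 and 5.85% in RC/- D53, where replicate 27 stood lowest (exact p = 0.135 and 0.611 against RC/-). mt-Nd1 held 11.5, 10.9 and 11.5% in RC/+ and 12.5, 13.1, 12.8, 12.5 and 11.4% in RC/- (exact p = 0.107).

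mt-Co1 took the largest share of mt- counts in every library. It was 38.5, 39.7 and 40.0% in RC/+ and 39.9, 39.2, 39.0, 40.9 and 40.5% in RC/-, which overlap (exact p = 0.464), 38.5, 38.4, 39.1, 39.3 and 38.9% in RC/- D18 (exact p = 0.0476 against RC/-) and 39.9, 39.2, 39.5, 39.7 and 37.4% in RC/- D53 (exact p = 0.246). The D18 value did not hold. Its p was 0.0952 with the 13 protein-coding genes as the denominator, and it was above 0.05 (up to 0.0952) when any 1 of RC/- replicates 13, 16 and 17 or RC/- D18 replicates 18, 19, 20 and 22 was left out, which is 7 of 10 libraries. mt-Cytb held 20.3, 19.5 and 19.6% in RC/+ and 20.5, 20.1, 19.95, 18.9 and 19.3% in RC/- (exact p = 0.964). mt-Nd4 held 6.84, 6.45 and 6.28% in RC/+ and 6.62, 7.09, 6.75, 6.33 and 6.12% in RC/- (exact p = 0.857), and 8.11% in RC/- D53 replicate 27 against 6.73% to 6.89% in the other RC/- D53 libraries. For mt-Nd1, mt-Nd4 and mt-Cytb the exact p against RC/- lay between 0.151 and 0.365 in the edited kidneys. The ribosomal RNAs together made up 4.11, 5.10 and 3.498% in RC/+ and 4.13, 4.10, 4.88, 5.85 and 5.01% in RC/-, and neither passed at 0.05 in any comparison (exact p = 0.183 to 0.817). Of the 18 tests on the 6 genes inside the copied stretch, the mt-Co2, mt-Co3, mt-Nd3 and mt-Nd4l shares had the smallest possible p in RC/- against RC/+, higher in RC/- for mt-Co2 and mt-Co3 and lower for the others, and mt-Co2 (exact p = 0.0317) and mt-Nd3 (exact p = 0.0238) were below 0.05 in RC/- D53 against RC/-. In RC/- against RC/+ the mt-Co3 share had p = 0.0714 by exact permutation over the protein-coding sum, and with nuclear copies added the exact p was 0.143 for mt-Nd4l and 0.143 for mt-Nd3, whose difference changed sign. The mt-Nd3 difference in RC/- D53 against RC/- also changed sign with copies added, to -0.0130% of mt- counts (exact p = 0.0317). The mt-Co2 share in RC/- D53 against RC/- had an exact p of 0.0635 when any 1 of RC/- replicates 13, 14 and 16 or RC/- D53 replicates 23, 24 and 26 was left out, which is 6 of 10 libraries.

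**Figure D5:**
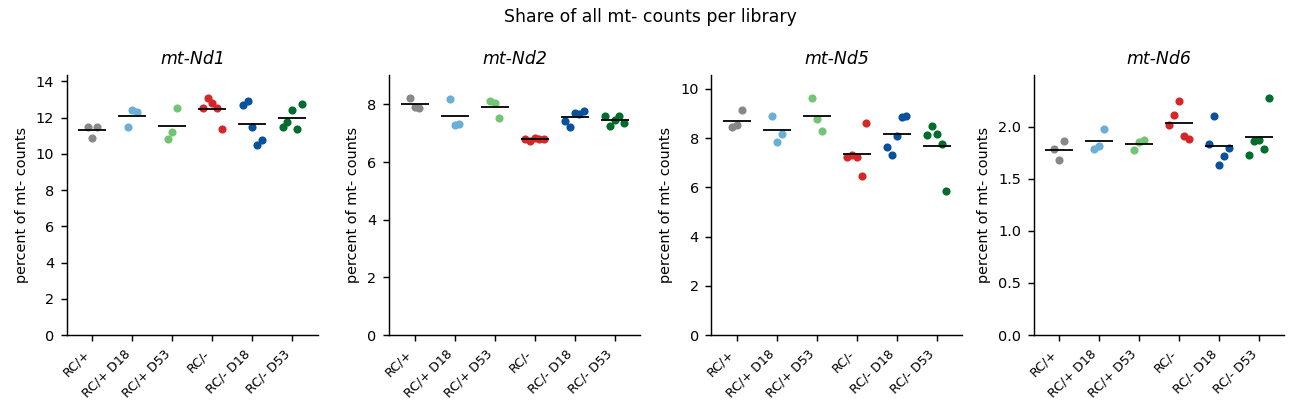
Share of all mt- counts per library for 4 complex I genes in 6 groups, with a point for each library and a line at the group mean. The mt-Nd2 shares of RC/- (red, 6.73% to 6.82%) sit below every other library, and RC/- D53 replicate 27 stands apart for mt-Nd5 (5.85%) and mt-Nd6 (2.27%).

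Deletion of the motif was also compared in the RC/+ kidneys, labelled control. All mt- counts made up 6.67, 5.46 and 5.51% of the library in RC/+ D18 and 6.19, 5.98 and 5.76% in RC/+ D53. The RC/+ range was 5.93 to 6.55%. Each RC/+ D18 library lay above or below it, and RC/+ D53 replicate 12 lay below it. In RC/+ D18 against RC/+, limma-trend called 0 of 17 genes, beside 0.00443% of all genes. The count at an unadjusted p below 0.05 was 1, mt-Nd3, at -1.26 (adjusted p = 0.161, SE 0.24), the comparison in which the libraries of the groups fall on opposite sides for Gm28438. edgeR called 0 and DESeq2 called mt-Nd3. In RC/+ D53 against RC/+ limma-trend called 0 of 17, beside 0.0% of all genes, with 0 at an unadjusted p below 0.05 and 0 by edgeR and DESeq2. For the 7 well-counted genes the log2 fold changes were between -0.15 and 0.02 for D18 and between -0.09 and -0.01 for D53.

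Within each edited line the cystic difference was compared again. RC/- D18 against RC/+ D18 gave 0 calls of 17 by limma-trend, edgeR and DESeq2, 0 at an unadjusted p below 0.05, and log2 fold changes of -0.31 to 0.42, beside 0.266% of all genes called. RC/- D53 against RC/+ D53 gave 0 calls of 17 by the same tools, 2 at an unadjusted p below 0.05 (mt-Atp8 and mt-Nd5), and log2 fold changes of -1.04 to 0.00, beside 2.6% of all genes. Only 1 of these 17 values was above 0, and their median was -0.16. There 4 genes had every RC/- D53 library below every RC/+ D53 library, beside 779 of all 22570 genes. mt-Nd5 in that comparison had -0.36 (adjusted p = 0.202, SE 0.14) and mt-Atp8 -1.04 (adjusted p = 0.113, SE 0.34). The interaction contrast, a test of unequal cystic differences in an edited and the unedited line, was above 0 for 17 of 17 genes in the D18 line and for 16 of 17 in the D53 line, all but mt-Atp8. It was called higher for 13 of 17 in the D18 line, beside 6.31% of all genes, and for 11 of 17 in the D53 line, beside 4.73%. The D18 count ran from 9 (without RC/+ replicate 5) to 15 (without RC/+ D18 replicate 7). With libraries 20 to 27 as a covariate, the D18 calls of mt-Rnr2 (adjusted p = 0.110), mt-Nd6 (adjusted p = 0.0539) and mt-Tp (adjusted p = 0.188) ended. With those libraries left out, which rests on the same RC/- D18 replicates 18 and 19, the calls of mt-Rnr2, mt-Co1 (adjusted p = 0.0730), mt-Co2 (adjusted p = 0.0503) and mt-Tp ended. The D53 count was 5 without RC/+ replicate 5, 6 without RC/+ replicate 6, RC/+ D53 replicate 11 or RC/- D53 replicates 23 or 26, and 7 without RC/+ D53 replicate 10, and 1 (mt-Atp6) with libraries 20 to 27 as a covariate. RC/- D53 against RC/- D18 gave 0 calls of 17 by limma-trend, beside 0.266% of all genes, with 1 at an unadjusted p below 0.05. That gene was mt-Nd3, at 0.84 (adjusted p = 0.0517, SE 0.19), which edgeR and DESeq2 each called, and the libraries of these groups again fall on opposite sides for Gm28438.

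The partners of these subunits that are encoded in the nucleus fell as well. Of 18 nuclear respiratory chain and ATP synthase genes, 16 were called lower in RC/- and none higher, with a median log2 fold change of -0.59, beside 12.2% of all genes called lower and a median of 0.14. The levels of Ndufs1 of complex I differed by -0.88 (adjusted p = 2.2e-08, SE 0.09) and those of Sdhb of complex II, a complex without mitochondrially encoded subunits, by -0.85 (adjusted p = 4.81e-09, SE 0.08). Uqcrc2 of complex III differed by -0.78 (adjusted p = 5.26e-09, SE 0.07), Cox4i1 of complex IV by -0.42 (adjusted p = 0.000105, SE 0.08) and Atp5b of ATP synthase by -0.67 (adjusted p = 8.35e-07, SE 0.08). Ndufa1 and Atp5o did not pass, with log2 fold changes of -0.25 and -0.25. The list summed to 7567 to 9310 CPM in RC/-, 11473 to 12572 in RC/- D18, 11088 to 12464 in RC/- D53 and 12021 to 13939 in the RC/+ groups. In RC/- D18 against RC/- 17 of 18 were called higher, beside 14.3% of all genes, and in RC/- D53 16, beside 11.3%.

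Genes for transcription, RNA processing and replication of the mitochondrial genome were called in both directions. Of 39 such genes, 10 were called lower in RC/-, beside 12.2% of all genes, and 4 higher, beside 25.5% of all genes. Their median log2 fold change was -0.14, against 0.14 for all genes. Tfam, the transcription factor that also packages the mitochondrial genome, was at 71.8 to 73.98 CPM in RC/+ and 52.0 to 55.0 CPM in RC/-, and the log2 difference was -0.44 (adjusted p = 3.41e-06, SE 0.06). Lrpprc, which binds and stabilizes mitochondrial mRNAs, was at 95.2 to 102 CPM in RC/+ and 67.0 to 76.4 CPM in RC/-, with -0.44 (adjusted p = 1.82e-05, SE 0.07). Grsf1, an RNA-binding protein of mitochondrial RNA granules, was at 176 to 193 CPM in RC/+ and 113 to 132 CPM in RC/-, with -0.60 (adjusted p = 2.05e-08, SE 0.06). For these 3 genes, the called genes with the most negative values of the list, the groups did not overlap. Polrmt, the mitochondrial RNA polymerase, did not pass, at -0.16 (adjusted p = 0.186, SE 0.09), with 40.4 to 48.2 CPM in RC/+ and 34.5 to 44.8 CPM in RC/-.

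The called genes of the list with the highest positive values were Mterf1b, at 0.75 (adjusted p = 0.00235, SE 0.18), and Mterf1a, at 0.50 (adjusted p = 0.012, SE 0.15), paralogs for a transcription termination factor. Rexo2, an exonuclease for short RNAs, was next at 0.37 (adjusted p = 0.000146, SE 0.07). Rexo2 was at 61.4 to 70.8 CPM in RC/+ and 80.4 to 94.5 CPM in RC/-. Mterf1a and Mterf1b are similar in sequence and stayed below 10 CPM in all libraries, so reads may have been divided between them. Of the 39 genes, 15 were called higher and 1 lower in RC/- D18 against RC/-, where 14.3% of all genes were higher and 26.9% lower. In RC/- D53 against RC/- the counts were 11 higher and 1 lower, where 11.3% of all genes were higher and 18.9% lower. Tfam was higher by 0.26 (adjusted p = 0.000236, SE 0.05) in RC/- D18 and 0.25 (adjusted p = 0.000619, SE 0.05) in RC/- D53, Lrpprc by 0.45 (adjusted p = 1.51e-06, SE 0.06) and 0.36 (adjusted p = 5.07e-05, SE 0.06), and Grsf1 by 0.59 (adjusted p = 2.45e-09, SE 0.05) and 0.48 (adjusted p = 1.81e-07, SE 0.05). Rexo2 was lower, by -0.36 (adjusted p = 2.64e-05, SE 0.06) and -0.30 (adjusted p = 0.000497, SE 0.06). Polrmt differed by 0.22 (adjusted p = 0.0296, SE 0.08) in RC/- D18 and by 0.10 (adjusted p = 0.423, SE 0.08) in RC/- D53.

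In RC/- the summed markers of some kidney cell types fell, as the mt- genes did, and those of others rose. The 20 proximal tubule markers summed to 24412 to 29416 CPM in the RC/+ groups, 6842 to 12493 in RC/-, 22544 to 30282 in RC/- D18 and 18638 to 21944 in RC/- D53, and 18 of 20 were called lower in RC/- against RC/+. Of all genes, 12.2% were called lower and 25.5% higher in that comparison, against which the marker counts here are read. The 14 markers of the thick ascending limb and distal convoluted tubule summed to 10189 to 13289 CPM in the RC/+ groups and 4624 to 7252 in RC/-, with 11 lower and 2 higher. They were at 10103 to 12422 CPM in RC/- D18 and 7584 to 11798 in RC/- D53. The summed level of the 14 collecting duct markers was 1460 to 2296 CPM in the RC/+ groups and 3235 to 5624 in RC/-, with 9 markers called higher and 3 called lower. The 15 macrophage markers rose from 369 to 427 CPM to 780 to 1518, all 15 called higher, and 8 fibroblast markers from 1227 to 2463 CPM to 3127 to 5069, with 5 called higher. In RC/- D18 and RC/- D53 the macrophage sums were 474 to 523 and 502 to 802 CPM, the fibroblast sums 996 to 2673 and 1771 to 2826, and the collecting duct sums 1969 to 2366 and 2420 to 3763. The 5 erythrocyte markers stood at 234 to 434 CPM in RC/- and 419 to 1280 in RC/- D53, where all 5 were called higher against RC/-, beside 11.3% of all genes. No marker was at 0 in all libraries, and the part of cell composition in the mt- differences was not tested.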

How the data were processed

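The authors deposited 1 table of raw counts per gene for 24 whole-kidney RNA libraries. Per the paper's methods and the submitters' processing notes, reads were trimmed with Trim Galore 0.6.3 as pairs at a length setting of 150 bases, aligned to GRCm38 with STAR 2.5.3a and counted per gene of Ensembl 94 by its gene counting mode, which keeps reads placed at a single site. The strand setting and library kit are not given in the sources used here. Counts were used as deposited, and 0 columns were left out. CPM is the count over the library total. limma-trend (limma 3.58.1, R 4.3.3) was fitted to log2 CPM (prior count 2) of 22570 genes with a mean of at least -3, with 6 group means over all libraries and Benjamini-Hochberg adjustment over all genes. A call is an adjusted p below 0.05. Shares were tested by exact permutation in scipy 1.17.1. Alternatives used edgeR 4.0.16 and DESeq2 1.42.0. Nuclear copies were found with BLAST 2.17.0 and GENCODE M21 (at least 90% identity over 200 bases). The script was tested on simulated data. Each mouse gave 1 library, so p-values rest on the spread between mice, and the 39 within-group pairs of libraries differed by more than counting noise (chi-square over degrees of freedom 8.45 to 48.2). Members and lists were chosen with earlier results of these data known. All mt- protein-coding and ribosomal RNA genes are named, with the 3 transfer RNAs of highest CPM, the 3 called machinery genes that changed most in each direction plus Tfam, Polrmt and Lrpprc, and nuclear copies with at least 20 counts in a library.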

Additional observations from a re-analysis of the deposited data

Results flagged for a closer look

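A library was set apart where its gap to the nearest library, over the range of its group of 5, passed Dixon's 95% critical value. Of 99 combinations of gene, measure and group checked, 15 passed. Chance gives about 1 in 20 for a single check. The 99 are not independent, since CPM and share use the same counts and the shares of a library are tied to each other. The 15 can therefore not be set against that rate. RC/- D53 replicate 27 accounted for 7 of the 15. Its share of mt- counts was 37.4% (nearest 39.2%) for mt-Co1, 5.85% (nearest 7.77%) for mt-Nd5, 8.11% (nearest 6.89%) for mt-Nd4, 2.27% (nearest 1.87%) for mt-Nd6, 0.0456% (nearest 0.0417%) for mt-Co3 and 0.17% (nearest 0.154%) for mt-Tp, and mt-Nd6 was at 1269 CPM (nearest 997 CPM). RC/- replicate 17 was low for mt-Nd4, at 1937 CPM (nearest 2444 CPM), and for mt-Cytb, at 6121 CPM (nearest 7359 CPM). RC/- replicate 16 was high for mt-Rnr2, at 1357 CPM (nearest 1000 CPM), and for mt-Tp, at 81.02 CPM (nearest 66.8 CPM). RC/- replicate 14 had an mt-Nd2 share of 6.73% (nearest 6.798%). RC/- D18 replicate 22 was high for mt-Rnr2, at 2240 CPM (nearest 1604 CPM), and for mt-Atp8, at 1.03 CPM (nearest 0.701 CPM), and RC/- D18 replicate 21 had an mt-Nd3 share of 0.00245% (nearest 0.00341%).

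The cystic difference itself differed between an edited and the unedited line by the interaction contrast of limma-trend for 13 genes with D18 and 11 with D53. The log2 values (RC/- minus RC/+ in the edited line, less the same without the edit) for D18 were mt-Rnr2 0.91, mt-Nd1 0.57, mt-Nd2 0.99, mt-Co1 0.72, mt-Co2 0.53, mt-Atp6 0.60, mt-Co3 0.77, mt-Nd3 1.73, mt-Nd4 0.81, mt-Nd5 0.98, mt-Nd6 0.53, mt-Cytb 0.77, mt-Tp 0.70. For D53 they were mt-Nd1 0.53, mt-Nd2 0.77, mt-Co1 0.57, mt-Co2 0.48, mt-Atp6 0.62, mt-Co3 0.46, mt-Nd3 1.43, mt-Nd4 0.75, mt-Nd5 0.64, mt-Nd6 0.47, mt-Cytb 0.69. Both contrasts share the unedited RC/- and RC/+ libraries, and the mt-Nd3 values change sign when counts of the nuclear copies are added.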

How the results depend on the processing

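Of 2091 alternative fold changes of named genes 1924 kept their direction and side of the threshold. Of 224 alternative counts of called genes 208 stayed within 1.5 times or stayed at 0. Some alternatives could not move a value, such as libraries 20 to 27 as a covariate in RC/- against RC/+. Of 504 alternative differences in shares of mt- counts, 407 kept their direction and side of the threshold. The other 97 did not, 26 of them with a change of sign. They include all 8 RC/- against RC/+ results with a library left out for each of mt-Nd2, mt-Co2, mt-Co3, mt-Nd3, mt-Nd4l and mt-Nd6. No share can pass there, so these totals do not compare the stability of shares and fold changes. With libraries 20 to 27 as a covariate, 5 genes were called for RC/- D53 against RC/-, 1 for RC/- D53 against RC/+ D53 and 1 for the D53 interaction, and the first and the last turned to -0.26 and -0.26 for mt-Rnr1, -0.20 and -0.0035 for mt-Tc and -0.13 and -0.072 for mt-Tp. The size of that covariate is set within RC/- D18 alone. Without a filter the D53 interaction gave 7. mt-Nd3 alone was called, so that the count was 1, by DESeq2 in RC/+ D18 against RC/+, and in RC/- D53 against RC/- D18 by edgeR, DESeq2, a prior count of 0.5 and with nuclear copies added (lower in the last). With copies added, mt-Nd3 turned to 0.22 in RC/- against RC/+, -0.52 in RC/- D53 against RC/-, and -0.27 and -0.43 in the D18 and D53 interactions. With the high Gm28438 libraries as a covariate, where RC/- D53 is set against RC/- replicate 17 alone, mt-Atp8 turned to -0.17 in RC/- D53 against RC/-. It turned to 0.037 by edgeR and 0.032 by DESeq2 in the D53 interaction. The cause was not tested. The summed mt- counts as a percent of the library, RC/- minus RC/+, went from -2.52 to -3.12 with TMM-scaled counts outside the mt- genes as denominator.

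Share differences that changed sign, in percent of mt- counts, were 0.0919 for mt-Cytb in RC/- against RC/+ over the protein-coding sum. With copies added, mt-Nd3 shares differed by 0.0123 in RC/- against RC/+, 0.000316 for D18 against RC/- and -0.0130 for D53 against RC/-, where mt-Atp6 differed by -0.000480 and mt-Nd4l by -0.000345.

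With each replicate left out, RC/- D53 against RC/- D18 gave 0 to 1 genes (1 without RC/- D53 replicate 25) and the D53 interaction 5 to 11, with mt-Atp8 there from -0.43 to 0.011. Shares in RC/- against RC/+ ran from -0.000282 to 7.9e-05 for mt-Atp8, -0.0677 to 0.218 for mt-Nd4 and -0.210 to 0.220 for mt-Cytb. In RC/- D18 against RC/- they ran from -0.000233 to 7.56e-05 for mt-Atp8, -0.212 to 0.0715 for mt-Rnr1 and -0.200 to 0.0903 for mt-Rnr2. In RC/- D53 against RC/- they ran from -0.00098 to 0.00116 for mt-Atp6 and -0.000133 to 0.000164 for mt-Nd4l.

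No paired analysis was possible because each replicate number names 1 mouse in 1 group. Depth limits mt-Atp8, mt-Nd4l and mt-Tc, with 0 to 35 counts per library, where a difference could not be resolved as finely as for the 7 well-counted genes.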
